A study of Mus musculus with 6 samples.

Results

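The genes described here are the histone modifiers and chromatin remodellers of mouse neuroblastoma cells, read on arrays after depletion of the corepressor KAP1. They were chosen by the start of their gene symbol: *Kdm* for lysine demethylases, *Kmt* and *Setd* for lysine methyltransferases, *Prmt* for arginine methyltransferases, *Hdac* and *Sirt* for deacetylases, *Kat* for acetyltransferases, *Smarc*, *Chd* and *Ino80* for remodellers, and *Arid*, *Brd* and *Prdm* for the remaining domain families. The deposited table holds 6951 transcript clusters, which are sets of probes summarised as 1 reading, and 5322 named genes. The rule found 45 of those genes, read by 56 transcript clusters. *Kmt5a*, *Hdac1*, *Chd3* and *Chd4* carry such symbols and are listed, but the rule left them out.

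DNA in the nucleus is wound around histones, and the enzymes described here place or remove methyl and acetyl groups on histone tails, or use ATP to slide and evict the histone core. Methylation of histone H3 at lysine 4 (H3K4) marks active promoters, whereas trimethylation of lysine 9 (H3K9me3) marks silent chromatin. KAP1, the product of *Trim28*, is recruited to DNA by zinc finger proteins with a KRAB domain and brings in SETDB1, a methyltransferase for H3K9, and the NuRD complex, which joins a CHD remodeller to histone deacetylases.

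The cells were N2A (Neuro-2A), an established mouse neuroblastoma line, and the question behind the arrays was which genes respond to loss of KAP1. The 3 control samples carried a scrambled shRNA and the 3 knockdown samples carried an shRNA against *Kap1*, each as 1.5 µg of expression construct transfected with a plasmid for hygromycin resistance. The *Kap1* hairpin is expressed from a U6 promoter. Hygromycin was added after transfection, at a dose that the study's methods give in µg/ml and the sample labels in mg/ml, and the resistant cells were grown for 7 days, so a sample pools many drug-resistant cells and is not a clone. The samples are called triplicates without a statement that each was transfected on its own, so a p-value here speaks of the spread between these samples alone, and that spread may be technical. With 3 arrays in a group the precision is limited by their number.

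The hairpin of the knockdown vector is shown because every comparison here rests on it. It is the forward strand of the shA oligo, and the capitals mark the 17 bases of each arm that pair with each other across the loop.
Kap1 shA forward oligo: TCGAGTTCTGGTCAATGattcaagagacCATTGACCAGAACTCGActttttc

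The intensity of *Trim28* itself averaged 3362 ± 88.9 (SD, n = 3) over the controls against 888 ± 41.9 (SD, n = 3) after knockdown, which is 26.4% of control (limma, log2 difference -1.92, SE 0.05, adjusted p = 1.30e-08). Array medians ran from 505 to 553 for the controls and from 507 to 528 for the knockdown. Of 13 markers of sympathoadrenal neuroblastoma 11 were listed, of which 3 rose and 5 fell. Over all named genes of the table, 15.8% rose and 16.5% fell, and the contrast was not tested. None of 5 astrocyte, 3 oligodendrocyte or 2 Schwann cell markers was listed, and 1 of 4 fibroblast and 1 of 4 macrophage markers was. A listed marker is one that differed between the groups, so these counts do not show which markers the cells express. All values below are Robust Multi-array Average (RMA) intensities, and all differences are knockdown minus control on the log2 scale. A gene rose or fell where the adjusted p of limma was at most 0.05 and the fold at least 1.4, which is a log2 difference of 0.49.

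The table is a list already selected on this comparison. Every one of its 6951 transcript clusters had an adjusted p under that limit, the smallest absolute log2 difference was 0.12, and the 3 control arrays and the 3 knockdown arrays overlapped for none of them. All 45 genes therefore had to differ, the largest adjusted p among them being 0.0199, and no adjusted p takes account of transcript clusters that were not listed. Besides the 4 left out, RefSeq holds 127 protein-coding genes with such symbols, and the other 82 have no value here. They include *Setdb1*, *Setdb2*, all 14 *Prdm* genes and all 5 *Ino80* genes. A further 12 transcript clusters that carry a name of the rule beside another gene's name were not used, 10 of them for *Ino80* with *Rpl35a* and 2 with *Arid4b*.

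Most of the 45 genes moved little. In these bulk samples, less transcript in each cell and fewer cells with the transcript cannot be told apart. In the knockdown 22 were higher and 23 lower, 5 rose, 3 fell and 37 stayed under the fold. *Smarcd2*, *Smarca2*, *Kdm2b*, *Chd2* and *Hdac5* rose, and *Hdac9*, *Arid1b* and *Brd9* fell. The share that rose was 11.1%, against 15.8% of the 5322 named genes, and the share that fell was 6.67%, against 16.5%. Over all 6951 transcript clusters, 15.0% rose and 17.6% fell. The median absolute log2 difference was 0.34 for these genes and 0.37 for all named genes, and 48.9% of these genes and 50.3% of all named genes were higher in the knockdown. The signed medians, -0.23 and 0.15, lie at the edges of the gap around 0 and show no opposite lean, since the first became -0.05 when the dim *Smarca1* was left out. These shares were not tested. Standard errors lay between 0.05 and 0.11, with a median of 0.06 (limma).

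**Figure D1:**
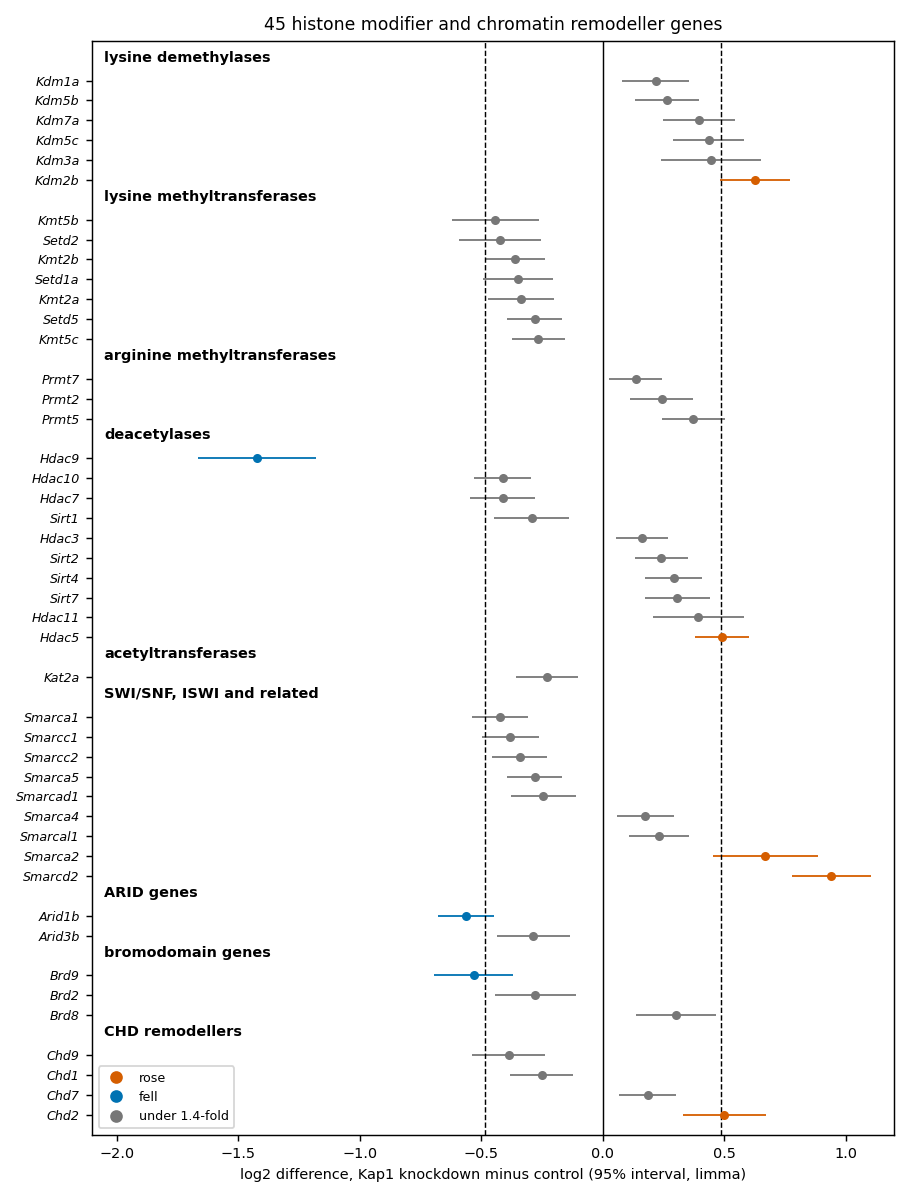
Log2 difference (knockdown minus control) of each of the 45 genes with its 95% interval from limma, grouped by family; dashed lines mark the 1.4-fold limit. All 6 demethylases and all 3 arginine methyltransferases lie right of 0, all 7 lysine methyltransferases lie left of it, and *Hdac9* at -1.42 lies furthest from it.

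The lysine methyltransferases kept by the rule were all lower in the knockdown, but none passed the fold. This does not hold for the enzyme class. Outside the rule *Ezh1* had a log2 difference of 0.48, *Smyd3* one of 0.55 and *Smyd2* one of -0.24. Besides *Kmt5a*, the table listed 7 of 17 *Kmt* and *Setd* genes, with differences from -0.44 to -0.27 and a median of -0.35. *Kmt5b*, which with *Kmt5c* methylates lysine 20 of histone H4, had the largest difference of the 7. Its intensity was 240, 234 and 205 on the control arrays and 153, 166 and 181 on the knockdown arrays. Every knockdown array was below every control array, at 73.6% of control on average (limma, log2 difference -0.44, SE 0.08, adjusted p = 0.000631). The difference was -0.51 without control replicate 3 and -0.50 without knockdown replicate 3, which takes it past the fold. *Kmt5c* read 753, 753 and 717 in the control and 614, 613 and 622 in the knockdown, a log2 difference of -0.27.

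*Setd2* makes the trimethyl mark on lysine 36 of histone H3 that follows elongating polymerase. It read 819, 781 and 683 in the control and 534, 579 and 587 in the knockdown (limma, log2 difference -0.42, SE 0.07, adjusted p = 0.000544), and its second transcript cluster gave -0.47. Control replicate 3 was the lowest of the controls, and without it the difference was -0.50, just past the fold.

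The H3K4 methyltransferases *Kmt2a*, *Kmt2b* and *Setd1a* stood close together. *Kmt2a*, also known as MLL1, read 1752, 1545 and 1620 in the control and 1247, 1318 and 1326 in the knockdown. *Kmt2b* read 726, 715 and 771 in the control and 551, 578 and 593 in the knockdown. *Setd1a* read 853, 837 and 768 in the control and 610, 636 and 686 in the knockdown. Their log2 differences were -0.34, -0.36 and -0.35, so that each knockdown mean was between 77.9% and 79.2% of its control. *Setd5*, a SET domain gene mutated in human intellectual disability, read 2563, 2548 and 2533 in the control and 2028, 2093 and 2181 in the knockdown, a log2 difference of -0.28 (limma, SE 0.05, adjusted p = 0.000600).

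The lysine demethylases lay on the other side. The table listed 6 of 18, and every one of the 6 was higher after knockdown, with a median of 0.42 on the log2 scale. *Kdm2b*, which demethylates lysine 36 of histone H3 and brings a Polycomb complex to CpG islands, was the only one that rose by its brightest transcript cluster. Its intensity was 209, 222 and 189 in the control and 320, 313 and 322 in the knockdown. The lowest knockdown array was 91 units above the highest control, a 1.54-fold rise (limma, log2 difference 0.63, SE 0.06, adjusted p = 2.05e-05).

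*Kdm3a* and *Kdm7a* remove methyl groups from H3K9. *Kdm3a* read 630, 590 and 482 in the control and 755, 801 and 746 in the knockdown (limma, log2 difference 0.44, SE 0.09, adjusted p = 0.00131). Its controls spread widely, and the difference ran from 0.33 without control replicate 3, the low one, to 0.52 without control replicate 1. It passed the fold in the latter case and, at 0.49, after quantile normalization. *Kdm7a* read 1136, 1086 and 960 in the control and 1403, 1374 and 1399 in the knockdown, a log2 difference of 0.40, while its second, dimmer transcript cluster gave 0.67 and did pass the fold.

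The H3K4 demethylases are *Kdm1a*, *Kdm5b* and *Kdm5c*. *Kdm1a*, known as LSD1, read 1919, 1900 and 1678 in the control and 2138, 2115 and 2130 in the knockdown. *Kdm5b* read 723, 664 and 671 in the control and 781, 838 and 854 in the knockdown. *Kdm5c*, an X-linked gene mutated in human intellectual disability, read 1107, 1063 and 947 in the control and 1371, 1399 and 1439 in the knockdown. None of the 3 passed the fold, with log2 differences of 0.22, 0.26 and 0.44 (limma, adjusted p = 0.00647, 0.00187 and 0.000207).

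**Figure D2:**
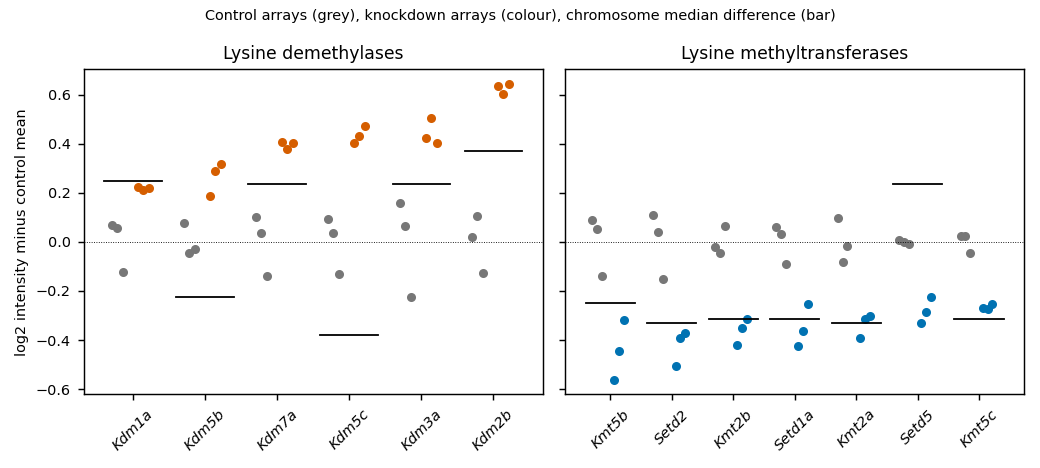
Log2 intensity of each array minus the control mean, for the 6 lysine demethylases (left) and 7 lysine methyltransferases (right); grey points are control arrays, coloured points knockdown arrays, and each bar is the median log2 difference of the other named genes on the same chromosome. No knockdown point overlaps its control points. *Kdm5b* and *Kdm5c* lie above 0 on chromosomes whose median is below it, and *Setd5* lies below 0 on one whose median is above it. On the chromosome of *Kdm5b*, 46.3% of the other named genes were higher too.

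All 3 listed *Prmt* genes were higher, from 0.14 to 0.37, and none passed the fold. *Prmt5*, the main enzyme of symmetric arginine dimethylation, read 3209, 3252 and 2925 in the control and 3951, 4022 and 4172 in the knockdown, 1.30-fold higher (limma, log2 difference 0.37, SE 0.06, adjusted p = 0.000254). *Prmt2* had a log2 difference of 0.24 and *Prmt7* one of 0.14, the smallest of the 45 genes. *Kat2a*, the GCN5 subunit of the SAGA complex, was the only 1 of 8 *Kat* genes listed. It read 2782, 2615 and 2597 in the control and 2184, 2233 and 2406 in the knockdown, at 85.3% of control (limma, log2 difference -0.23, SE 0.06, adjusted p = 0.00361). The acetyltransferases *Hat1* and *Naa60*, outside the rule, had log2 differences of 0.48 and -0.14.

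The deacetylases split. Besides *Hdac1*, which the rule left out, the table listed 10 of 17. Of these, 6 were higher and 4 lower, and the largest difference of all 45 genes was among them. *Hdac9* belongs to class IIa, enzymes that shuttle between nucleus and cytoplasm and bind MEF2 factors. Its intensity was 291, 237 and 249 in the control and 92, 86 and 113 in the knockdown. The highest knockdown array was 124 units below the lowest control array, and the mean fell to 37.3% of control (limma, log2 difference -1.42, SE 0.11, 95% interval -1.66 to -1.18, adjusted p = 2.97e-06).

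*Hdac5*, of the same class, went the other way. It read 522, 513 and 540 in the control and 740, 721 and 753 in the knockdown (limma, log2 difference 0.49, SE 0.05, adjusted p = 1.80e-05). It rose by 1.41-fold, only just past the limit, and missed it at 0.47 without control replicate 2, at 0.48 without knockdown replicate 3 and at 0.48 with 16 added to each intensity. The third class IIa gene listed, *Hdac7*, read 415, 415 and 459 in the control and 310, 330 and 328 in the knockdown, a log2 difference of -0.41.

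Of the other deacetylases, *Hdac10*, known for deacetylating polyamines, had a log2 difference of -0.41. *Hdac3*, the catalytic subunit of the NCoR and SMRT corepressors, had one of 0.16 and *Hdac11* one of 0.39. Among the NAD-dependent sirtuins, the nuclear *Sirt1* was lower at -0.29. The chiefly cytoplasmic *Sirt2* was higher at 0.24, the mitochondrial *Sirt4* at 0.29 and the nucleolar *Sirt7* at 0.31. None of these passed the fold.

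The SWI/SNF genes held the largest rises. SWI/SNF (BAF) complexes are built on 1 of a pair of alternative ATPases, SMARCA2 (BRM) or SMARCA4 (BRG1), with scaffold subunits and exchangeable accessory subunits that differ between cell types. *Smarcd2*, an accessory subunit known as BAF60B, read 237, 240 and 214 in the control and 405, 447 and 475 in the knockdown. The lowest knockdown array was 165 units above the highest control, a 1.92-fold rise (limma, log2 difference 0.94, SE 0.07, adjusted p = 3.26e-06). *Smarca2* read 336, 287 and 256 in the control and 429, 468 and 493 in the knockdown, a 1.59-fold rise (limma, log2 difference 0.67, SE 0.10, adjusted p = 0.000163).

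The alternative ATPase *Smarca4* read 1527, 1486 and 1434 in the control and 1614, 1700 and 1710 in the knockdown, a log2 difference of only 0.18 (limma, SE 0.05, adjusted p = 0.00808). The scaffold genes *Smarcc1* and *Smarcc2* were lower. *Smarcc1* read 1766, 1766 and 1817 in the control and 1304, 1397 and 1410 in the knockdown, and *Smarcc2* read 1130, 1063 and 1130 against 885, 872 and 866. Their log2 differences were -0.38 and -0.34, short of the fold.

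Both domain-family genes that fell also encode SWI/SNF subunits. *Arid1b*, a subunit of canonical BAF and a frequently mutated gene in human intellectual disability, read 1113, 1169 and 1151 in the control and 748, 775 and 799 in the knockdown. It fell to 67.6% of control (limma, log2 difference -0.56, SE 0.05, adjusted p = 9.45e-06). *Brd9*, the bromodomain subunit of the noncanonical complex, read 631, 664 and 550 in the control and 432, 432 and 410 in the knockdown, 69.2% of control (limma, log2 difference -0.53, SE 0.07, adjusted p = 0.000119). Without control replicate 2, its highest control, the difference was -0.47 and missed the fold. Of the genes here that encode a BAF subunit, *Smarca2*, *Smarca4* and *Smarcd2* were thus higher and *Smarcc1*, *Smarcc2*, *Arid1b* and *Brd9* lower.

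**Figure D3:**
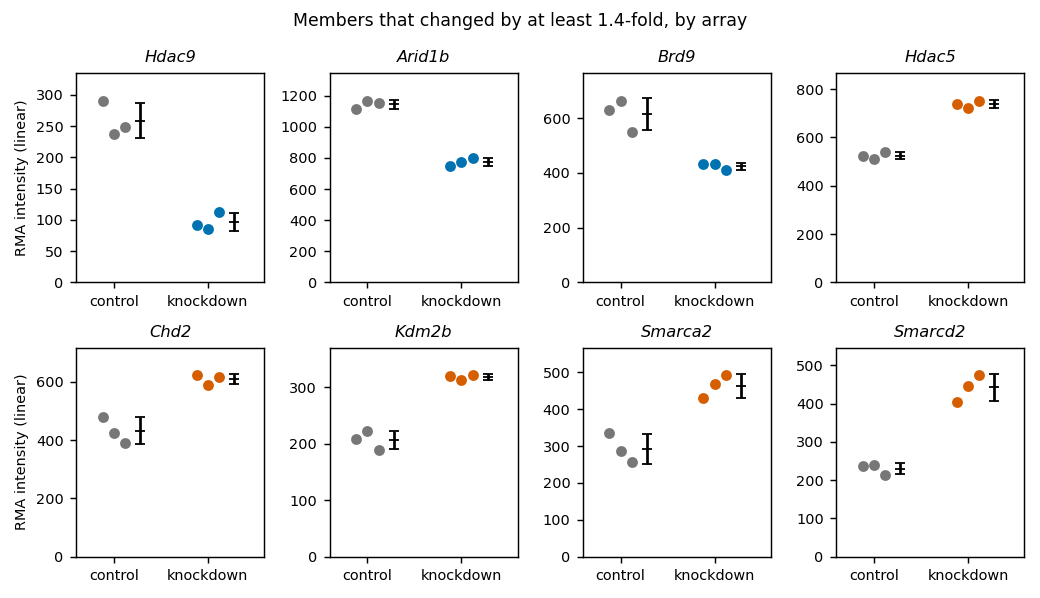
RMA intensity, on a linear axis from 0, of each control array (grey) and knockdown array (coloured) for the 8 genes that changed; the black bar beside each group is its mean ± SD (n = 3). The groups do not overlap in any panel, and *Hdac9* and *Smarcd2* show the widest separation as a fold.

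The start regions of the 2 genes that fell and the 2 that rose furthest, among those with an entry, are shown side by side. Each region is labelled promoter, although a listed start need not be the start in use. They are RefSeq windows of GRCm38.p6, from 250 bases before to 50 bases after the first listed start of the gene, and 38 of the 45 genes have one. The sources used here do not give the build behind the array's transcript clusters. The motifs searched on both strands were the GC box (GGGCGG), the CCAAT box (CCAAT), the ETS core (CCGGAAG), the E box (CACGTG), the cyclic AMP element (TGACGTCA), the NRF1 site and the TATA element (TATAAA), and capitals mark each match.
Hdac9 promoter, chr12:34917046-34917345, minus strand: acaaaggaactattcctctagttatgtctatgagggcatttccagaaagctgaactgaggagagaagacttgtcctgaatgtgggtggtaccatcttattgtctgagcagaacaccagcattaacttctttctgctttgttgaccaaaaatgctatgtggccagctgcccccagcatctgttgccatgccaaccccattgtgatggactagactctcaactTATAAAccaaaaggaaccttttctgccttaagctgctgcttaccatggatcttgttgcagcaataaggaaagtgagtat
Arid1b promoter, chr17:4994824-4995123, plus strand: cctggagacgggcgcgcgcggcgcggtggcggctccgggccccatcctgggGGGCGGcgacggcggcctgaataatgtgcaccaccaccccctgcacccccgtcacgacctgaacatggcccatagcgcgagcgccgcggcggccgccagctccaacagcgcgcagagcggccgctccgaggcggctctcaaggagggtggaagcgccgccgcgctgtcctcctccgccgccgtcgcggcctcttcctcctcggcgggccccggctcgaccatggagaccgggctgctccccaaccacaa
Smarcd2 promoter, chr11:106267583-106267882, minus strand: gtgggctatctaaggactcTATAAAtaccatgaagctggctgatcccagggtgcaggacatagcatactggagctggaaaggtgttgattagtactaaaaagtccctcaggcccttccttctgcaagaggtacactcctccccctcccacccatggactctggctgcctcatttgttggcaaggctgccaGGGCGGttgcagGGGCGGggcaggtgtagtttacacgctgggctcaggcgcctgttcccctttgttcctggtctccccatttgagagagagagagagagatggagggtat
Smarca2 promoter, chr19:26604910-26605209, plus strand: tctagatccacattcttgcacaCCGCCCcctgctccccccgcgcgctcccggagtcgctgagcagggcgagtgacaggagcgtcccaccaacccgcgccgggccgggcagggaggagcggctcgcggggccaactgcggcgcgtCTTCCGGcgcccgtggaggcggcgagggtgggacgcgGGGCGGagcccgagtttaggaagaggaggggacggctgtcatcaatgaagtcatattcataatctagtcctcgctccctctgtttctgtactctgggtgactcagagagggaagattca

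The 4 windows differed in base content and motifs, and neither pair was alike. The window of *Hdac9*, which fell furthest, held no CpG dinucleotide and a TATA element. That of *Arid1b*, which also fell, held 42 CpG and 1 GC box. From an ATG to its end the *Arid1b* window reads without a stop codon. Its letters may therefore be coding sequence and are not to be read as those of a promoter. The window of *Smarcd2* held 4 CpG, 2 GC boxes and a TATA element, and that of *Smarca2* held 29 CpG, 2 GC boxes and an ETS core. Over the 38 windows, 71.1% held a GC box, against 66.5% of the 4243 windows of named genes on the table and 35.9% of all 27025 windows. The CCAAT box was in 31.6%, 39.5% and 37.9% of them, the ETS core in 18.4%, 17.2% and 9.12%, the E box in 5.26%, 9.92% and 7.24%, and the TATA element in 7.89%, 6.60% and 14.2%. The cyclic AMP element was in none of the 38, 3.32% and 1.88%, and the NRF1 site in none, 2.17% and 0.98%. The median window held 22 CpG for these genes and 21 for named genes of the table. A match is a description of letters and no evidence that a factor binds.

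The remaining SMARC genes belong to other remodellers, and none passed the fold. *Smarca1* and *Smarca5* encode the alternative ISWI ATPases SNF2L and SNF2H. *Smarca5* read 1400, 1390 and 1429 in the control and 1172, 1190 and 1114 in the knockdown, a log2 difference of -0.28. *Smarca1* was dim, at 47, 47 and 44 in the control and 34, 34 and 35 in the knockdown, and its log2 difference was -0.42, or -0.30 with 16 added to each intensity. *Smarcad1*, a remodeller known to bind KAP1 itself, had a log2 difference of -0.24. *Smarcal1*, which rewinds DNA at stalled replication forks, had one of 0.23.

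The CHD remodellers carry paired chromodomains beside the ATPase. Those kept by the rule, without *Chd3* and *Chd4*, divided evenly. *Chd2*, mutated in human developmental epilepsy, read 481, 426 and 390 in the control and 624, 589 and 615 in the knockdown (limma, log2 difference 0.50, SE 0.08, adjusted p = 0.000221). It rose by 1.41-fold, but the difference was 0.43 without control replicate 3, 0.48 without knockdown replicate 1 and 0.48 with 16 added to each intensity, each below the fold. *Chd1*, its closest relative, read 792, 725 and 775 in the control and 614, 643 and 668 in the knockdown, a log2 difference of -0.25. *Chd9* was lower at -0.39.

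*Chd7*, mutated in human CHARGE syndrome, is the gene read by most transcript clusters. The brightest of its 10 gave a log2 difference of 0.18, all 10 were higher in the knockdown, from 0.17 to 0.51, and 1 passed the fold. Which cluster stands for the gene therefore decides its size and its call, but not its direction. With the cluster of largest change taken for each gene, 7 genes rose, and with the mean over clusters, 6.

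**Figure D4:**
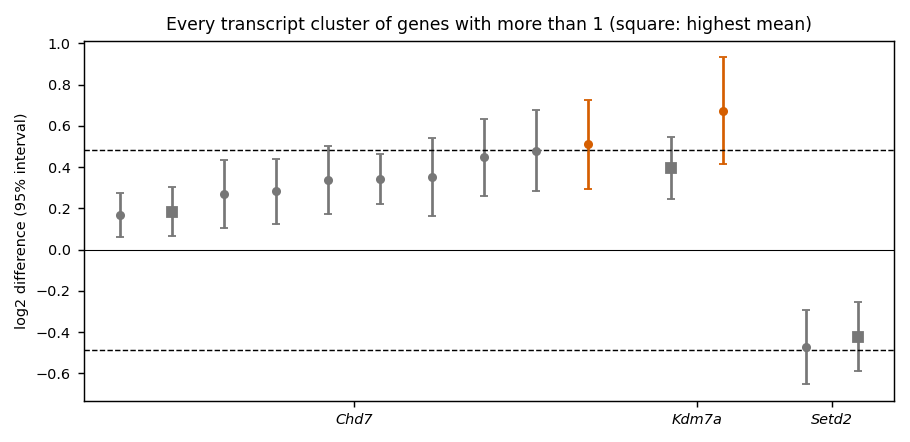
Log2 difference with its 95% interval from limma for every transcript cluster of *Chd7* (10), *Kdm7a* (2) and *Setd2* (2), the genes with more than 1; squares mark the cluster of highest mean intensity, used in the text, and dashed lines the 1.4-fold limit. Every cluster of a gene lies on the same side of 0, and 1 cluster of *Chd7* and 1 of *Kdm7a* lie above the limit.

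Of the other readers, *Brd2*, a BET protein that binds acetylated histone H4, had a log2 difference of -0.28. *Brd8*, a subunit of the TIP60 acetyltransferase complex, had one of 0.30. *Arid3b*, which binds AT-rich DNA, had one of -0.29. Nearest to the fold on the inside were *Hdac5*, *Chd2* and *Brd9*, at 1.41, 1.41 and 1.44-fold, and nearest on the outside were *Kdm3a*, *Kmt5b* and *Kdm5c*, at 1.36, 1.36 and 1.35-fold.

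The direction of a gene also went with its chromosome. Over the named genes of the table, the share higher in the knockdown ran from 22.4% on chromosome 17 and 23.1% on chromosome 7 to 80.5% on chromosome 18 and 87.2% on chromosome 5. The 45 genes lie on 17 chromosomes, and 29 of them stood on the same side of 0 as the median of the other named genes on their chromosome. With the 10 nearest named genes in place of the chromosome, fewer near a chromosome end, the number was 34. The same shares were not taken over all named genes, so neither count can be read as particular to these 45. Pearson's r between a gene's difference and its chromosome's median was 0.29 (Spearman's rho 0.31, n = 45 genes), and with the median of its neighbours r was 0.53. All points come from the same 6 arrays, and genes of a chromosome share their median. No listed difference is smaller than 0.12 in absolute size. A chromosome's median can therefore stand away from 0 even where its genes are almost evenly divided. The part of the chromosome in the differences was not tested.

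The 2 lysine methylation families are set beside their chromosomes here, and the contrast between them was not tested. Of the 7 lysine methyltransferases, 6 lie on chromosomes 7, 9 and 19, whose medians were -0.31, -0.33 and -0.25. Relative to the chromosome the family's median difference was -0.05. Against the median of their neighbours, 3 of the 7 were above and 4 below. *Setd5* alone lay on a chromosome with a positive median, chromosome 6 at 0.24. Of the 6 demethylases, 5 were above the median of their chromosome and all 6 above that of their neighbours, and the family's median relative to the chromosome was 0.23. *Kdm5c* was 0.44 higher on the X chromosome, whose median was -0.38, and *Kdm5b* 0.26 higher on chromosome 1, at -0.23. On chromosome 1, however, 46.3% of the other named genes were higher as well.

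Among the genes that changed, *Smarca2* on chromosome 19, *Chd2* on chromosome 7 and *Hdac9* on chromosome 12 went against the median of their chromosome. Of the 10 neighbours of *Chd2*, 1 was higher in the knockdown, and of those of *Smarca2*, 5 were. Of those of *Hdac9* 3 were, with a median of -0.31, so *Hdac9* went against its chromosome but the way of most of its neighbours. *Kdm2b* on chromosome 5 had 10 higher neighbours of 10, *Brd9* on chromosome 13 had none of 10 and *Arid1b* on chromosome 17 none of 6, so these 3 also went the way of their neighbours. *Smarca4* was higher on chromosome 9, whose median was -0.33, yet its 10 nearest named genes were all higher too. When each difference was taken relative to its chromosome, an alternative chosen after seeing the data, *Chd2*, *Smarca2* and *Smarcd2* still passed the fold upward with *Kdm5b*, *Kdm5c*, *Sirt2* and *Smarca4*, and *Hdac9* passed it downward with *Setd5*, *Sirt1* and *Smarcc2*. *Kdm2b*, *Hdac5*, *Arid1b* and *Brd9* no longer did. The pass of *Kdm5b* rested on the median of chromosome 1, where 46.3% of the other named genes were higher.

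**Figure D5:**
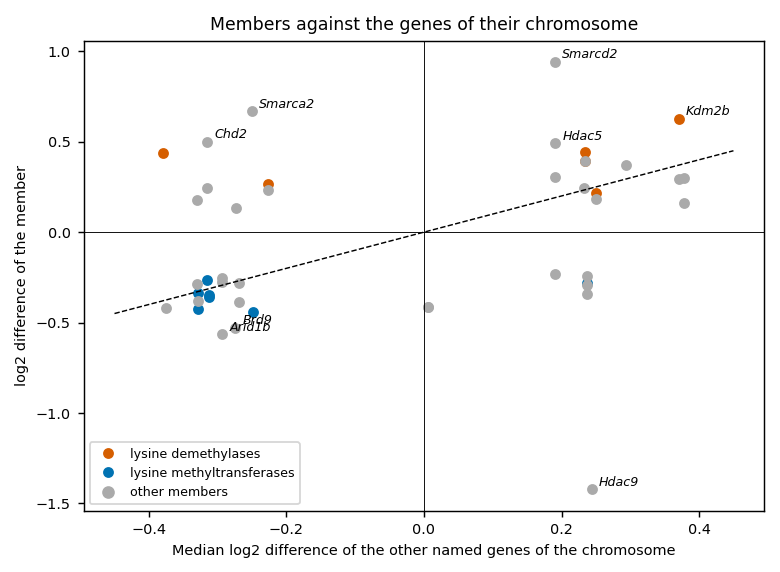
Log2 difference of each of the 45 genes against the median log2 difference of the other named genes on its chromosome; the dashed line marks equality, and genes past the 1.4-fold limit are named. The methyltransferases (blue) lie near the line but for *Setd5*, the demethylases (orange) mostly above it, and *Hdac9* far below it.

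The arrays were not equal within their groups either. Control replicate 3 held the lowest of the control values for 28 of the 45 genes, 17 of them among the 22 that were higher in the knockdown, and knockdown replicate 1 the lowest of the knockdown values for 30. Over all transcript clusters the median deviation of control replicate 3 from the control mean was -0.05 on the log2 scale, and that of knockdown replicate 1 from its group mean was -0.03. The part of these shifts in single differences was not tested. Without control replicate 3, of the 45 genes 4 rose and 5 fell.

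The wider machinery, read through a list of 166 partner genes outside the symbol rule, is given by its counts. The table held 51 of them, of which 21 were higher and 30 lower, and 3 rose, 11 fell and 37 stayed under the fold. That is 5.88% that rose and 21.6% that fell, against 15.8% and 16.5% of all named genes, a contrast that was not tested. The deepest fall was in *Sgf29*, the SAGA subunit that reads H3K4 methylation, at 931, 953 and 866 in the control and 409, 506 and 502 in the knockdown (limma, log2 difference -0.96, SE 0.08, adjusted p = 8.03e-06). *Paxip1*, a partner of H3K4 methyltransferases, fell by 0.72 and *Rcor3*, a CoREST protein that binds LSD1, by 0.63. *Actr8*, a subunit of the INO80 complex, rose by 0.67. *Smyd3*, a reported H3K4 methyltransferase named after its values were seen, read 368, 329 and 281 in the control and 457, 486 and 485 in the knockdown. It rose (limma, log2 difference 0.55, SE 0.09, adjusted p = 0.000324), unlike the H3K4 methyltransferases of the *Kmt* and *Setd* families.

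A pair of BAF subunits, named after their values were seen, moved in opposite directions. *Dpf3*, which takes the place of other DPF subunits in BAF complexes of neurons and muscle, read 383, 338 and 355 in the control and 524, 522 and 548 in the knockdown and rose (limma, log2 difference 0.57, SE 0.06, adjusted p = 2.22e-05). *Dpf2*, the widely expressed member of that family, read 2960, 2741 and 2639 in the control and 1864, 1980 and 1985 in the knockdown and fell (limma, log2 difference -0.52, SE 0.06, adjusted p = 4.13e-05).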

How the data were processed

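Labelled cDNA from 200 ng total RNA a sample was read on GeneChip Mouse Gene ST arrays. Normalization was by Robust Multi-array Average in GeneSpring, done by the authors, whose deposited values are intensities on a linear scale. The value table used here gives them as whole numbers. The submitters' processing notes name limma. The sources used here do not give the rule by which transcript clusters were listed.

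Groups came from the sample labels. After a log2 transform the knockdown was compared with the control in limma 3.58.1 (lmFit, then eBayes; R 4.3.3), with no block for the replicate number. Benjamini-Hochberg adjustment ran over the whole table. The fit was tested on simulated data. Genes were named from the platform annotation where it gives 1 symbol, updated through RefSeq gene identifiers, and read from the transcript cluster of highest mean intensity. Counts were made in Python 3.11.15 with pandas 2.3.3. Promoter windows and gene order come from RefSeq tables of GRCm38.p6, and the hairpin from the study's oligo list.

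The genes, families, partner list and markers were chosen with earlier results of these data known. Values on every array were given for each gene that changed, and for the gene of largest difference in a family with none. Others were added to describe families. *Dpf2*, *Dpf3*, *Ezh1*, *Hat1*, *Naa60*, *Smyd2* and *Smyd3* were named after their values were seen. The comparison with chromosomes was also chosen after that. The alternatives tried were quantile normalization, median centring, the unrounded table, a replicate block, trend and robust settings, a filter that drops transcript clusters whose mean log2 intensity was below 6 for control and knockdown alike, a pseudocount of 16, folds of 1.2 and 2, an adjusted p of 0.01, other choices of transcript cluster, and leaving out each array in turn. The other assays of the study were not analysed here.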

Additional observations from a re-analysis of the deposited data

How the results depend on the processing

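Across 13 settings that refit every gene, 584 log2 differences were obtained, of which none changed sign. The groups overlapped for none of these genes, so leaving out an array could not change a sign. The replicate block and the trend and robust settings leave each difference as it was. Of the 584, 7 lost the call of their gene and 5 gained one. Those 12 belong to *Brd9*, *Chd2*, *Hdac5*, *Kdm3a*, *Kmt5b* and *Setd2*. The count of genes that rose, 5, became 3 with a pseudocount of 16, 0 when the limit was a 2-fold change and 14 when it was 1.2-fold. The count that fell, 3, became 1 for the first of these limits and 20 for the second. Leaving out 1 array at a time gave 4 to 6 genes that rose and 2 to 5 that fell, the 5 without control replicate 3, where *Kmt5b* and *Setd2* joined. Over the whole table, 1043 transcript clusters rose and 1225 fell. The 2-fold limit gave 153 and 352, and the 1.2-fold limit 2710 and 2594. The order of those counts turned after median centring (1217 and 1123) and quantile normalization (1207 and 1135), which moved the median of all transcript clusters by 0.03 on the log2 scale.

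Same-numbered samples did not deviate together from their group means (correlations -0.17, -0.13 and 0.04). The labels do not say whether the numbers pair the samples. These correlations cannot settle it, since a weak shared effect could leave them this low. With the replicate block 5 genes rose and 3 fell, as without it. The block does not change a log2 difference, so only the adjusted p could have altered these counts. Taken relative to the median of the same chromosome, chosen after seeing the data, 7 rose and 4 fell.

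The table lists only transcript clusters that differ, so no gene can be called unchanged and no share of changed genes holds for the array as a whole. RMA intensities carry no detection call. *Smarca1*, the dimmest of these genes, was left out by the filter on dim transcript clusters.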
